A study of Mus musculus with 8 samples.

Results

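The genes of mitochondrial fatty acid oxidation were followed in mouse left ventricle, as a set of 36 listed genes out of 13439 in the table. They were chosen by symbol for their place in the pathway and not by their measured values. All 36 were in the table and all 36 had at least 1 CPM (the reads of a gene scaled to the total of its library) in at least 2 libraries, so that each could be tested. The set is named for mitochondria, but not all of its enzymes are confined to them. As examples, Acaa1a, Hsd17b4 and Decr2 encode enzymes known from peroxisomes, Eci2 one known from both organelles, and Acot1 a cytosolic thioesterase. The place of each enzyme in the cell was not tested.

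The adult heart draws most of its ATP from long-chain fatty acids. Acyl groups are activated to acyl-CoA, carried across the inner mitochondrial membrane as carnitine esters, and shortened in the matrix by repeated rounds of dehydrogenation, hydration, a second dehydrogenation and thiolysis. Electrons from the first step pass through the electron transfer flavoprotein (ETF) to ubiquinone. Many of these genes are known targets of PPAR-alpha, of the estrogen-related receptors and of their coactivator PGC-1-alpha, and a fall of the pathway's transcripts is well known from the pressure-overloaded heart.

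The study asked, by its title, whether loss of Lin28a attenuates the hypertrophy induced by pressure overload. Its 8 libraries form 4 groups of 2, all of left ventricle: Lin28afl/fl mice with sham surgery (floxed sham), Lin28afl/fl mice with transverse aortic constriction (floxed TAC), and Lin28aCko mice with sham surgery (cKO sham) or TAC (cKO TAC). TAC narrows the aortic arch and so raises the load on the left ventricle. Hearts after TAC were taken at day 5. The sources used here give no day for the sham hearts, no age of the mice and no driver of the Cre recombinase. The controls were littermates that carry the floxed allele, and the knockout is described as cardiac-specific. Lin28a transcripts were not analysed here, and the genotype of a library is known from its label alone. The libraries are called duplicates with no statement that each came from its own animal. In the cKO sham pair, sex-linked transcripts differed between libraries 1 and 2: Xist was at 0 and 44.3 CPM and Ddx3y at 63.2 and 0 CPM. That pair therefore did not come from the same animal. For the other groups this was not tested, and replicate variation there may be technical. Every p-value rests on the variation among these 8 samples alone.

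Library totals lay between 10315902 and 21871570 reads. A count of 0 leaves room for up to 3 reads, which is 0.137 to 0.291 CPM at these totals. The 15 cardiomyocyte markers checked against the tissue label were all in the table and summed to between 52830 and 96730 CPM in the 8 libraries. Library cKO sham 2 stood apart in sex-linked transcripts: Xist was at 44.3 CPM and Ddx3y at 0 CPM there, against at most 0.173 CPM and at least 32.3 CPM in the other 7 libraries, and the labels give no sex. Transcripts of Myl7, a light chain of atrial muscle, reached 133 CPM in floxed sham 2, 66.2 CPM in cKO TAC 2 and 65.0 CPM in cKO sham 2 and stayed between 0.511 and 6.16 CPM elsewhere. Counts without cKO sham 2 and without the 3 libraries that carry Myl7 are given with each comparison they enter. Without those 3, only floxed TAC keeps 2 libraries, so the spread is then estimated from that pair alone and these counts are a weak check. Of the 50-base windows of each transcript, 35.1% in Acaa1a (most shared with Acaa1b), 27.1% in Slc22a5 (Slc22a21), 24% in Acadvl (Dvl2, on the opposite strand) and 20.4% in Acad10 (Acad12) also occur in another gene's transcripts. The sources used here do not say how such reads were counted, so these values are uncertain to that degree.

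Promoter sequence was available for 29 of the 36 genes in RefSeq's table of mouse gene starts (build GRCm38.p6, the build of mm10). The 250 bases before the start are shown for 5 genes, each in its own 5′ to 3′ direction: Acadm and Ucp3 fell and hold AGGTCA, the core hexamer known from nuclear receptors such as PPAR-alpha and the estrogen-related receptors, Hadha and Acot2 fell and hold none in this window, and Cpt1a holds it and did not pass the test. Capitals mark AGGTCA or, where the motif lies on the opposite strand, its reverse complement TGACCT.

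Acadm, chr3:153944644-153944893, minus strand: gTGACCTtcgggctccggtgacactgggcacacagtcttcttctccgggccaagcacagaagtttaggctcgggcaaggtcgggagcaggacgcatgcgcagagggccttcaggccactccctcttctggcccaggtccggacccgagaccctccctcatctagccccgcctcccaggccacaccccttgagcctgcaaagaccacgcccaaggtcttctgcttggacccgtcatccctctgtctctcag
Ucp3, chr7:100472741-100472990, plus strand: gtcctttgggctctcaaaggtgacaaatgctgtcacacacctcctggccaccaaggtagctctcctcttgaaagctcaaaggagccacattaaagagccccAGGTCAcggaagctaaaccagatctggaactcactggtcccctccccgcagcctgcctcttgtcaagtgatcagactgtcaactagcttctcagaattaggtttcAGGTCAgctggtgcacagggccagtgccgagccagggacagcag
Hadha, chr5:30154981-30155230, minus strand: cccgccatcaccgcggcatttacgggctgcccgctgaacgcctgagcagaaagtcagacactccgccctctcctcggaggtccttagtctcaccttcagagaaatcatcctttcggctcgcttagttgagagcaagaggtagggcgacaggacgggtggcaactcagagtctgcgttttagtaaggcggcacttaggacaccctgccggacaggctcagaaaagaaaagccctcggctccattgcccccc
Acot2, chr12:83987611-83987860, plus strand: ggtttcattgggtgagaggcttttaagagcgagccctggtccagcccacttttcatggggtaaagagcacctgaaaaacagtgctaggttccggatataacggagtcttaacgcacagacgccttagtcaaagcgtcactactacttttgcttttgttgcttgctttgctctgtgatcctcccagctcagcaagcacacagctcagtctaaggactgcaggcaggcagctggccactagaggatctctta
Cpt1a, chr19:3323051-3323300, plus strand: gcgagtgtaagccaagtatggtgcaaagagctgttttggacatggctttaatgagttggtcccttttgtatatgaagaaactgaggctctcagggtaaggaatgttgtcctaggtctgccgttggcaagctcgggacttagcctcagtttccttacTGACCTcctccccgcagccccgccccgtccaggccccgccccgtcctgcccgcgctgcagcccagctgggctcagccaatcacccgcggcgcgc

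On either strand, AGGTCA was present in 5 of the 29 windows (Cpt1a, Acadvl, Acadm, Echs1 and Ucp3), or 17.2%, against 15.8% of the 27025 genes in the same table. The extended form AAGGTCA, which contains AGGTCA, was in 1 window (Acadm), or 3.45% against 4.7% of all genes. A direct repeat of AGGTCA with 1 base between both copies (DR1) was in none of the 29 windows and in 0.0407% of all, and TNAAGGTCA was in none and in 1.3%. The GC box GGGCGG was in 20 of the 29 windows (69%, against 35.4% of all genes), and CCAAT in 12 (41.4% against 37.5%). The 27025 genes were not limited to those expressed in these hearts, so these shares do not show a trait of the pathway. A match is a description of these letters and not a site. Hadha and Hadhb, which encode both subunits of the trifunctional protein, start 273 bases apart on opposite strands of chromosome 5, so that their windows overlap.

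After TAC in floxed hearts, transcripts of nearly the whole pathway were lower, and in cKO hearts after TAC they stayed much closer to sham. The 36 genes together held 1.97% and 2.07% of the reads in the floxed sham libraries and 0.761% and 0.773% in the floxed TAC libraries. They held 1.91% and 1.79% in cKO sham and 1.64% and 1.34% in cKO TAC. Both floxed TAC libraries therefore lay far below the other 6, and the cKO TAC libraries lay between them and all 4 sham libraries. In floxed hearts 34 of the 36 genes fell (limma on log2(CPM + 1), Benjamini-Hochberg adjusted p under 0.05 over 13120 genes), where 14.5% of all genes tested fell, and none rose, where 27.9% of all rose. The median log2 difference over the 36 was -1.30, against 0.14 over all genes tested. In cKO hearts 0 of 36 passed, where 0.442% of all genes fell and 2.09% rose, and the median was -0.22 against 0.02 over all. Genes fell to a median of 40.5% of sham CPM in floxed hearts (range 13.8% to 107%) and stood at a median of 86.4% in cKO hearts (range 62.6% to 112%). Both floxed TAC libraries lay below both floxed sham libraries for 34 of the 36 genes, all but Cpt1a and Decr2, where 28.9% of all genes had this order. Counts of the floxed comparison ranged from 31 to 34 with any 1 library left out and were 32 without the 3 libraries that carry Myl7 and 34 without cKO sham 2.

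**Figure D1:**
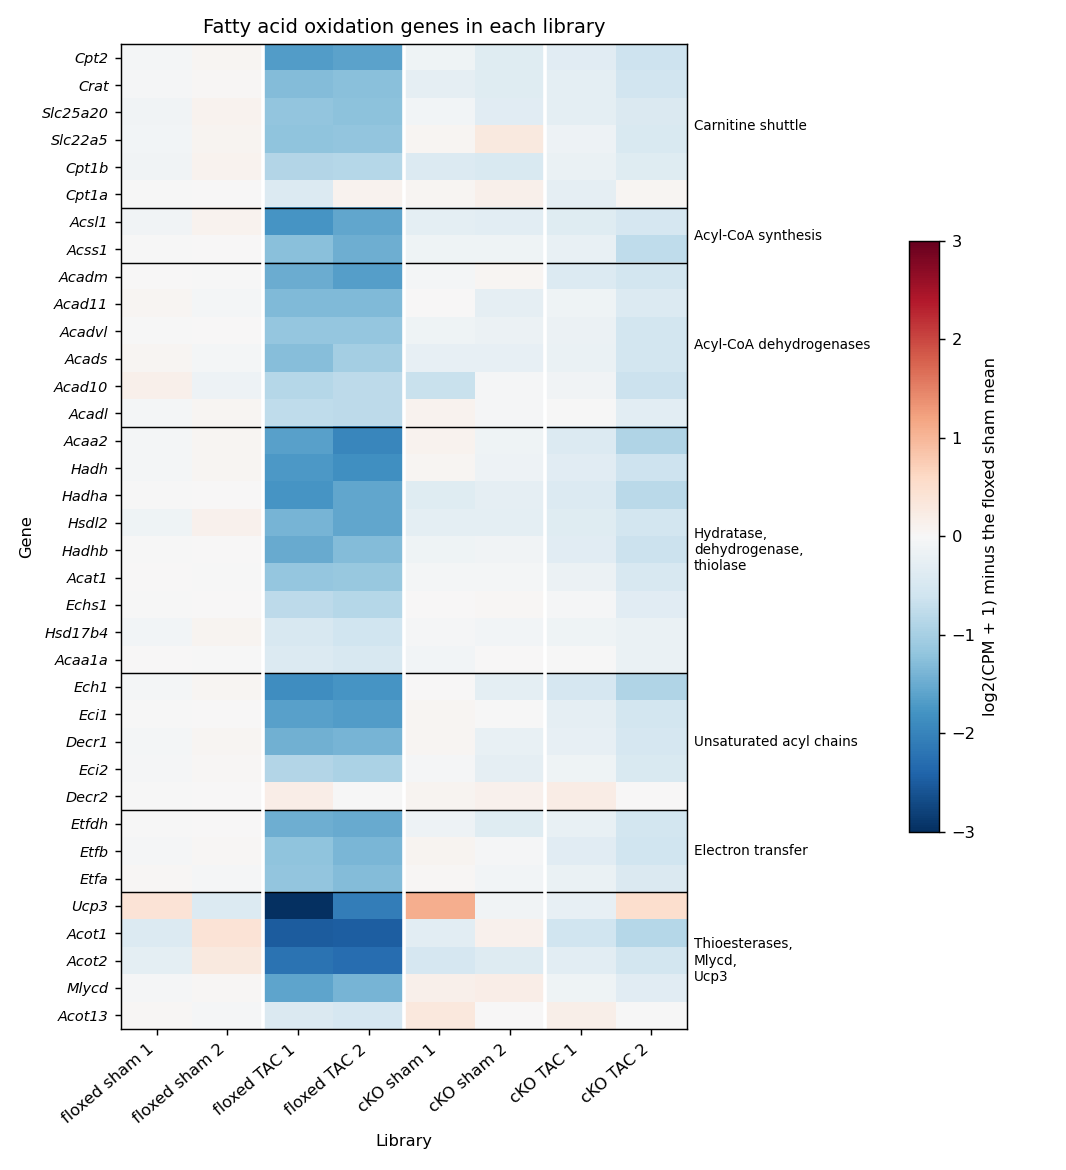
Expression of the 36 genes (rows, grouped by role and ordered within a role by the floxed TAC response) in the 8 libraries (columns), as log2(CPM + 1) minus the mean of the 2 floxed sham libraries. Blue is lower and red higher than floxed sham, and the floxed TAC columns are the darkest blue, with Cpt1a and Decr2 near white.

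These values come from whole left ventricle, where fewer cells of a type and less RNA per cell cannot be told apart. The 15 cardiomyocyte markers moved in the same direction: 9 fell and 1 rose in floxed hearts after TAC, with a median log2 difference of -0.50 and a mean of -0.69, and their summed CPM was 52830 to 54070 in floxed TAC against 82440 to 96730 in floxed sham. In cKO hearts their sum was 75810 to 95690 after TAC against 77950 to 83700 in sham, with a mean difference of 0.08. When the values of each library were centred on the mean of these markers, 26 of the 36 genes were lower and 2, Cpt1a and Decr2, were higher in floxed hearts after TAC, with a median of -0.61. Of all 13120 genes tested, 385 were lower and 9124 higher under this centring, with a median of 0.83. In the other direction, all 12 macrophage markers rose in floxed hearts, from sums of 426 to 435 CPM to 2191 to 2476 CPM, and 10 of 12 rose in cKO hearts, from 350 to 458 CPM to 766 to 1058 CPM. Of 10 fibroblast markers 8 rose in floxed and 4 in cKO hearts, and their sums were 12170 to 15700 CPM in floxed TAC and 3621 to 5957 CPM in cKO TAC. No endothelial marker of 10 passed in either genotype. Among the 6 skeletal muscle markers that were tested, 4 fell and 1 rose in floxed hearts and none passed in cKO hearts, and of 8 markers of smooth muscle and pericytes 3 rose and 2 fell in floxed hearts and 1 rose and 1 fell in cKO hearts. None of 3 erythroid markers passed in either genotype. The 15 cardiomyocyte markers did not move together, with log2 differences from -2.22 to 0.53 in floxed hearts after TAC. Centring on their mean therefore cannot separate the share of cells from changes within cells. The part of these cell populations in the results was not tested.

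The carnitine shuttle comprises Slc22a5, the plasma membrane carnitine transporter, Cpt1a and Cpt1b, the outer membrane acyltransferases on which malonyl-CoA acts, Slc25a20, the inner membrane carnitine-acylcarnitine carrier, Cpt2, the inner membrane acyltransferase, and Crat, the acetyltransferase. In floxed hearts 5 of the 6 fell after TAC, all but Cpt1a, with a median of -1.20. Cpt2 (chromosome 4, 107903981 to 107923610, minus strand in GRCm38) was at 371 and 398 CPM in floxed sham, 120 and 125 CPM in floxed TAC, 352 and 296 CPM in cKO sham and 301 and 248 CPM in cKO TAC. Both floxed TAC libraries lay below the other 6. It fell by 1.64 ± 0.13 (SE) on the log2 scale in floxed hearts (adjusted p = 2.72e-05), and in cKO hearts the difference was -0.24 ± 0.13 (adjusted p = 0.393). Slc25a20 was at 250 and 285 CPM in floxed sham, 117 and 114 CPM in floxed TAC, 250 and 210 CPM in cKO sham and 216 and 196 CPM in cKO TAC. The groups overlapped between the cKO libraries with and without TAC, and neither overlapped with floxed TAC. Crat was at 1005 and 1040 CPM, 414 and 430 CPM, 842 and 794 CPM and 829 and 688 CPM in the same order of groups, and both of its floxed TAC libraries were again the lowest. Slc22a5 fell by 1.19 ± 0.16 in floxed hearts, to 41.8% of sham, and stood at 70.8% in cKO hearts.

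Cpt1a, the form of the outer membrane enzyme that predominates in liver, did not follow the others. It was at 74.0 and 76.3 CPM in floxed sham, 56.3 and 81.5 CPM in floxed TAC, 78.5 and 84.3 CPM in cKO sham and 62.0 and 78.2 CPM in cKO TAC. The floxed TAC libraries lay on either side of the sham libraries, and the difference was -0.15 ± 0.18 (adjusted p = 0.533), or 0.55 when centred on the cardiomyocyte markers (adjusted p = 0.0374). That centred value was below the median of 0.83 over all genes tested, of which 9124 of 13120 were higher under the centring. Cpt1b, the muscle form, was at 11.3 and 13.2 CPM in floxed sham, 6.22 and 6.36 CPM in floxed TAC, 9.02 and 8.63 CPM in cKO sham and 10.5 and 9.22 CPM in cKO TAC. It fell by 0.86 ± 0.18 in floxed hearts (adjusted p = 0.00381). In cKO hearts both TAC libraries lay above both sham libraries, and the difference was 0.14 ± 0.18 (adjusted p = 0.758). Per kilobase of exon, Cpt1b stood at 4.24 CPM and Cpt1a at 17.4 CPM in floxed sham. Of the 50-base windows of the Cpt1b transcript, 93% also occur in an overlapping read-through gene on the same strand, Gm44502, so reads of either gene may have been dropped or assigned to the other, and the level of Cpt1b beside Cpt1a is uncertain.

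Both genes of acyl-CoA synthesis fell in floxed hearts. Acsl1, the main long-chain acyl-CoA synthetase of heart, was at 1551 and 1780 CPM in floxed sham, 491 and 564 CPM in floxed TAC, 1354 and 1327 CPM in cKO sham and 1288 and 1179 CPM in cKO TAC. The cKO TAC libraries were just below the cKO sham libraries and far above the floxed TAC libraries. Its log2 difference was -1.66 ± 0.12 in floxed hearts (adjusted p = 2.25e-05) and -0.12 ± 0.12 in cKO hearts (adjusted p = 0.694). Acss1, the mitochondrial acetyl-CoA synthetase, fell by 1.35 ± 0.16 in floxed hearts, and in cKO hearts it was at 418 and 284 CPM after TAC against 442 and 446 CPM in sham.

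The acyl-CoA dehydrogenases carry out the first oxidation of each round and differ in the chain lengths they accept. All 6 fell in floxed hearts (median -1.15), and none passed in cKO hearts (median -0.17). Acadm, the medium-chain enzyme, was at 1206 and 1204 CPM in floxed sham, 430 and 382 CPM in floxed TAC, 1164 and 1257 CPM in cKO sham and 910 and 819 CPM in cKO TAC. The sham libraries of both genotypes overlapped, and cKO TAC lay below all of them and above both floxed TAC libraries. Acadm fell by 1.57 ± 0.12 in floxed hearts (adjusted p = 2.01e-05), and in cKO hearts the difference of -0.49 ± 0.12 was the closest of the 36 to the threshold (adjusted p = 0.0623). Acadvl, the very-long-chain enzyme of the inner membrane, was at 983 and 1013 CPM in floxed sham, 445 and 448 CPM in floxed TAC, 907 and 882 CPM in cKO sham and 886 and 685 CPM in cKO TAC. It fell by 1.16 ± 0.13 in floxed hearts (adjusted p = 0.000141), and cKO TAC 1 lay between the cKO sham libraries. Acadl, the long-chain enzyme, was at 1010 and 1113 CPM, 623 and 610 CPM, 1146 and 1027 CPM and 1047 and 845 CPM in the same order of groups. Its fall in floxed hearts, by 0.78 ± 0.13, was the smallest of the 6. Acads, for short chains, fell by 1.14 ± 0.14 and Acad11 by 1.32 ± 0.13. Acad10, at 14.2 and 11.3 CPM in floxed sham, fell by 0.82 ± 0.26 (adjusted p = 0.0297), a call that was lost with either library of either floxed group left out.

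The next steps are hydration, the second dehydrogenation and thiolysis. Hadha and Hadhb form the membrane-bound trifunctional protein for long chains, Echs1, Hadh and Acaa2 are the matrix enzymes for shorter chains, and Acat1 cleaves acetoacetyl-CoA. All 9 genes of this group fell in floxed hearts, with a median of -1.41, and none passed in cKO hearts, with a median of -0.26. Hadha was at 1964 and 1977 CPM in floxed sham, 575 and 671 CPM in floxed TAC, 1522 and 1643 CPM in cKO sham and 1492 and 1129 CPM in cKO TAC. Hadhb was at 1824 and 1849 CPM, 642 and 744 CPM, 1678 and 1716 CPM and 1444 and 1170 CPM in the same order. Both subunits thus had the same order of groups, with floxed TAC lowest in each. Hadha fell by 1.66 ± 0.15 (adjusted p = 4.79e-05) and Hadhb by 1.41 ± 0.14 (adjusted p = 6.32e-05) in floxed hearts, and of the windows of Hadhb 62.4% also occur elsewhere, most in Gm13910. Hadh was at 853 and 915 CPM in floxed sham, 269 and 247 CPM in floxed TAC, 913 and 794 CPM in cKO sham and 693 and 574 CPM in cKO TAC. Acaa2, the matrix thiolase, was at 1007 and 1089 CPM, 336 and 270 CPM, 1118 and 962 CPM and 786 and 556 CPM in that order. Both genes had cKO TAC between floxed TAC and sham with no overlap. Hadh fell by 1.77 ± 0.13 in floxed hearts (adjusted p = 1.97e-05), and Acaa2 fell by 1.80 ± 0.17 (adjusted p = 7e-05). Hsdl2 was at 304 and 361 CPM in floxed sham, 126 and 112 CPM in floxed TAC, 271 and 268 CPM in cKO sham and 255 and 225 CPM in cKO TAC. Acat1 fell by 1.15 ± 0.12 and Echs1 by 0.81 ± 0.12. The smallest falls of this group were those of Hsd17b4, by 0.54 ± 0.11, and Acaa1a, by 0.45 ± 0.12, and both had positive differences that did not pass when centred on the cardiomyocyte markers. Without the libraries that carry Myl7 neither call held (adjusted p = 0.0511 for Hsd17b4 and 0.0533 for Acaa1a), and that of Acaa1a was also lost without floxed sham 1 (adjusted p = 0.0888), floxed sham 2 (0.0662) or floxed TAC 2 (0.0728).

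Unsaturated acyl chains need isomerases and a reductase in addition. Eci1 and Eci2 move double bonds, Decr1 reduces dienoyl-CoA in mitochondria, Decr2 does so in peroxisomes, and Ech1 is a dienoyl-CoA isomerase. Of these 5 genes 4 fell in floxed hearts. Ech1, the member with the highest level per kilobase of exon (1470 CPM per kilobase in floxed sham), was at 1789 and 1941 CPM in floxed sham, 512 and 550 CPM in floxed TAC, 1888 and 1529 CPM in cKO sham and 1318 and 999 CPM in cKO TAC. It fell by 1.81 ± 0.16 in floxed hearts (adjusted p = 4.04e-05), to 28.5% of sham. Eci1 had the smallest adjusted p of the 36 in that comparison: it was at 270 and 271 CPM in floxed sham, 86.5 and 83.9 CPM in floxed TAC, 284 and 268 CPM in cKO sham and 223 and 183 CPM in cKO TAC, and it fell by 1.66 ± 0.12 (adjusted p = 1.76e-05). The replicates of Eci1 in floxed hearts were almost equal, and cKO TAC lay between floxed TAC and sham with no overlap. Decr1 fell by 1.42 ± 0.13 and Eci2 by 0.92 ± 0.13. Decr2 was at 16.4 and 16.7 CPM in floxed sham, 19.2 and 16.4 CPM in floxed TAC, 17.6 and 18.1 CPM in cKO sham and 19.4 and 16.8 CPM in cKO TAC. All 8 values of Decr2 lay between 16.4 and 19.4 CPM, with the groups overlapping, and the difference in floxed hearts was 0.09 ± 0.16 (adjusted p = 0.661).

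Electrons leave the dehydrogenases through Etfa and Etfb, the subunits of ETF, and Etfdh, the oxidoreductase that passes them to ubiquinone. All 3 genes fell in floxed hearts. Etfdh was at 662 and 680 CPM in floxed sham, 241 and 235 CPM in floxed TAC, 602 and 523 CPM in cKO sham and 579 and 458 CPM in cKO TAC. It fell by 1.49 ± 0.13 (adjusted p = 4.05e-05) in floxed hearts, and the cKO groups overlapped (-0.12 ± 0.13, adjusted p = 0.702). Etfb was at 670 and 702 CPM in floxed sham, 299 and 265 CPM in floxed TAC, 724 and 670 CPM in cKO sham and 542 and 454 CPM in cKO TAC. Its cKO TAC libraries lay below all 4 sham libraries (-0.49 ± 0.12, adjusted p = 0.0742), and 67.3% of its windows are shared with Gm45233, which overlaps it on the same strand. Etfa fell by 1.24 ± 0.12 in floxed hearts and stood at 81.6% of sham in cKO hearts.

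Among the remaining 5 genes were the largest falls of the pathway. Acot1 and Acot2 are acyl-CoA thioesterases, the latter mitochondrial, Mlycd degrades malonyl-CoA and so relieves the block on Cpt1, and Ucp3 is an inner membrane carrier that rises with fatty acid supply. Ucp3 was at 73.1 and 41.4 CPM in floxed sham, 3.48 and 12.4 CPM in floxed TAC, 119 and 50.8 CPM in cKO sham and 46.6 and 78.7 CPM in cKO TAC. Its replicates differed widely in each group, yet both floxed TAC libraries lay below the other 6. It fell by 2.86 ± 0.53 in floxed hearts (adjusted p = 0.00209), to 13.8% of sham. Acot2 was at 71.7 and 106 CPM in floxed sham, 17.9 and 17.2 CPM in floxed TAC, 60.9 and 66.9 CPM in cKO sham and 70.0 and 59.2 CPM in cKO TAC. The cKO TAC libraries enclosed the cKO sham libraries: the difference was 0.01 ± 0.18 in cKO hearts (adjusted p = 0.981) and -2.25 ± 0.18 in floxed hearts (adjusted p = 2.84e-05). Acot1 was at 19.7 and 35.2 CPM, 3.84 and 3.90 CPM, 21 and 28.7 CPM and 17 and 14.2 CPM in the same order of groups. It fell by 2.49 ± 0.26 in floxed hearts (adjusted p = 0.000102), with 23.7% of its windows found in Acot2 as well, so that reads could be split between them. Mlycd was at 132 and 141 CPM in floxed sham, 44.7 and 51.1 CPM in floxed TAC, 152 and 158 CPM in cKO sham and 124 and 108 CPM in cKO TAC. It fell by 1.497 ± 0.12 in floxed hearts (adjusted p = 2.72e-05). Acot13, a small thioesterase associated with mitochondria, fell by 0.47 ± 0.12, to 72.2% of sham, and had a positive difference that did not pass when centred on the cardiomyocyte markers. Its call was lost without floxed sham 1 (adjusted p = 0.0958), floxed sham 2 (0.0515) or floxed TAC 2 (0.067).

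**Figure D2:**
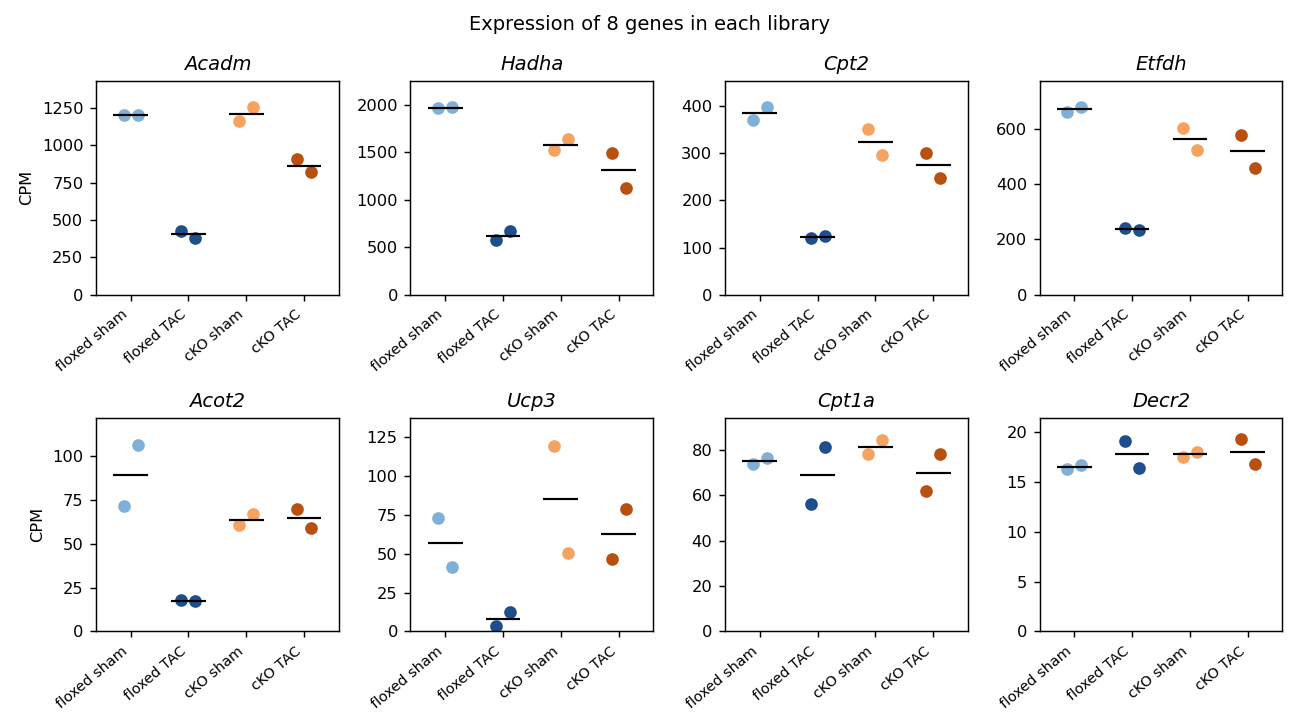
CPM of 8 of the genes in each library (points, 2 per group) with the group mean (line), each panel on its own linear axis from 0. In the panels of Acadm, Hadha, Cpt2, Etfdh, Acot2 and Ucp3 both floxed TAC points lie below the other 6 points, whereas the points of Cpt1a and Decr2 overlap between groups.

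In cKO hearts, TAC against sham gave small negative differences for most of the pathway. Of the 36 genes 33 had a negative difference and 3 a positive one (Cpt1b, Decr2 and Acot2), and 11 had an unadjusted p under 0.05, all lower, against 6.13% of all genes. Both cKO TAC libraries lay below both cKO sham libraries for 20 of the 36, where 19.9% of all genes had this order. The largest differences were those of Acaa2 (-0.65 ± 0.17, adjusted p = 0.0939), Acot1 (-0.63 ± 0.26, adjusted p = 0.271) and Ech1 (-0.57 ± 0.16, adjusted p = 0.106), and Eci1 stood at -0.45 ± 0.12 (adjusted p = 0.082). The count of 0 did not hold in every setting. Without library cKO TAC 1, which leaves a lone library in that group, some of the 36 genes passed as lower. Over all genes tested, more also passed as lower without cKO TAC 1, although their median difference there was 0.07. With DESeq2 on the recovered reads 4 were lower (Acadm, Acaa2, Ech1 and Etfb), where 164 of all 13120 genes were. With edgeR's quasi-likelihood test 0 were lower, where 57 of all genes were. The count was also 0 without cKO sham 2 and without the libraries that carry Myl7.

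The cKO TAC replicates differed from each other across nearly the whole pathway. Library cKO TAC 2 was below cKO TAC 1 for 34 of the 36 genes, all but Cpt1a and Ucp3, where 37.0% of all genes had this order. The values in cKO TAC 2 were 66.5% to 169% of those in cKO TAC 1, with a median of 82.8%. The floxed TAC replicates had no such order, with 18 of 36 genes lower in floxed TAC 2 (51.5% of all genes). Library cKO TAC 2 also had more macrophage marker reads (1058 against 766 CPM), more fibroblast marker reads (5957 against 3621 CPM), fewer cardiomyocyte marker reads (75810 against 95690 CPM) and more Myl7 than cKO TAC 1. Their part in the difference was not tested.

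Between the genotypes, TAC hearts were compared directly. Transcripts of 32 of the 36 genes were higher in cKO TAC than in floxed TAC, where 8.39% of all genes were higher, and 0 were lower, where 16.5% were. The 4 that did not pass were Cpt1a, Acad10, Acaa1a and Decr2. The median difference was 0.90, against -0.10 over all genes. As a share of floxed TAC, cKO TAC stood at 101.6% to 791.6%, with a median of 190%. Ucp3 differed most (2.99 ± 0.53, adjusted p = 0.00466), followed by Acot2 (1.81 ± 0.18, adjusted p = 0.000791) and Acot1 (1.76 ± 0.26, adjusted p = 0.00239). Hadh (1.29 ± 0.13), Mlycd (1.26 ± 0.12) and Eci1 (1.24 ± 0.12) shared with Acot2 the smallest adjusted p of 0.000791. Both cKO TAC libraries were above both floxed TAC libraries for 34 of the 36 genes (23.6% of all genes), all but Cpt1a and Decr2. For 19 of the 36 the cKO TAC libraries were in addition below all 4 sham libraries, where 5.91% of all genes lay in this way between, among them Acadm, Hadha, Hadhb, Hadh, Acaa2, Ech1, Eci1 and Mlycd. For 4 genes, Cpt1b, Acad10, Acot13 and Ucp3, both cKO TAC libraries lay within the range of the sham libraries (29.4% of all genes). With the values centred on the cardiomyocyte markers, whose mean was 0.65 higher in cKO TAC, 13 genes were higher and 2 lower (Cpt1a and Decr2), and the median was 0.25. Of all 13120 genes tested, 124 were higher and 8906 lower under this centring, with a median of -0.75. Cpt1b, Acadl, Echs1, Hsd17b4, Eci2 and Acot13, which passed as higher in CPM, had negative differences in that centring and did not pass. Without the libraries that carry Myl7 31 genes were higher, and without cKO sham 2 32 were. The calls of Cpt1b, Acss1, Acadl, Hsd17b4, Eci2 and Acot13 were lost with at least 1 of the 8 libraries, or those that carry Myl7, left out.

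The interaction, the TAC response of cKO hearts minus that of floxed hearts, tests the difference of the responses themselves. It was positive and past the threshold for 27 of the 36 genes, where 4.93% of all genes were, and negative and past it for 0, where 9.18% were. The median was 1.04, against -0.13 over all genes. Acot2 had the largest value among those that passed (2.26 ± 0.25, adjusted p = 0.00407), before Acot1 (1.86 ± 0.37, adjusted p = 0.0147), Acsl1 (1.54 ± 0.18, adjusted p = 0.00415) and Cpt2 (1.40 ± 0.18, adjusted p = 0.00454). Ucp3 had the largest value of all and did not pass (2.50 ± 0.75, adjusted p = 0.0544). The other 8 that did not pass were Slc22a5 (0.71 ± 0.22, adjusted p = 0.0637), Acadl (0.58 ± 0.19, adjusted p = 0.0679), Acad10, Acaa1a, Hsd17b4, Acot13, Cpt1a and Decr2. By role, the medians were 1.03 for the carnitine shuttle, 1.26 for acyl-CoA synthesis, 0.98 for the acyl-CoA dehydrogenases, 1.02 for hydration to thiolysis, 1.14 for unsaturated chains, 0.95 for electron transfer and 1.86 for thioesterases, Mlycd and Ucp3. The count fell to 14 without floxed sham 1 and to 21 without cKO sham 2, and was 24 without the libraries that carry Myl7. Over all genes tested, fewer also passed in each of these settings than with all 8 libraries. The calls of Cpt1b and Echs1 were lost with any 1 library left out except cKO TAC 2. Centred on the cardiomyocyte markers, 7 genes were higher and 2, Cpt1a and Decr2, were lower, with a median of 0.26. Of all 13120 genes tested, 127 were higher and 7712 lower under this centring, with a median of -0.91. The comparisons share libraries, so their counts do not add to each other.

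**Figure D3:**
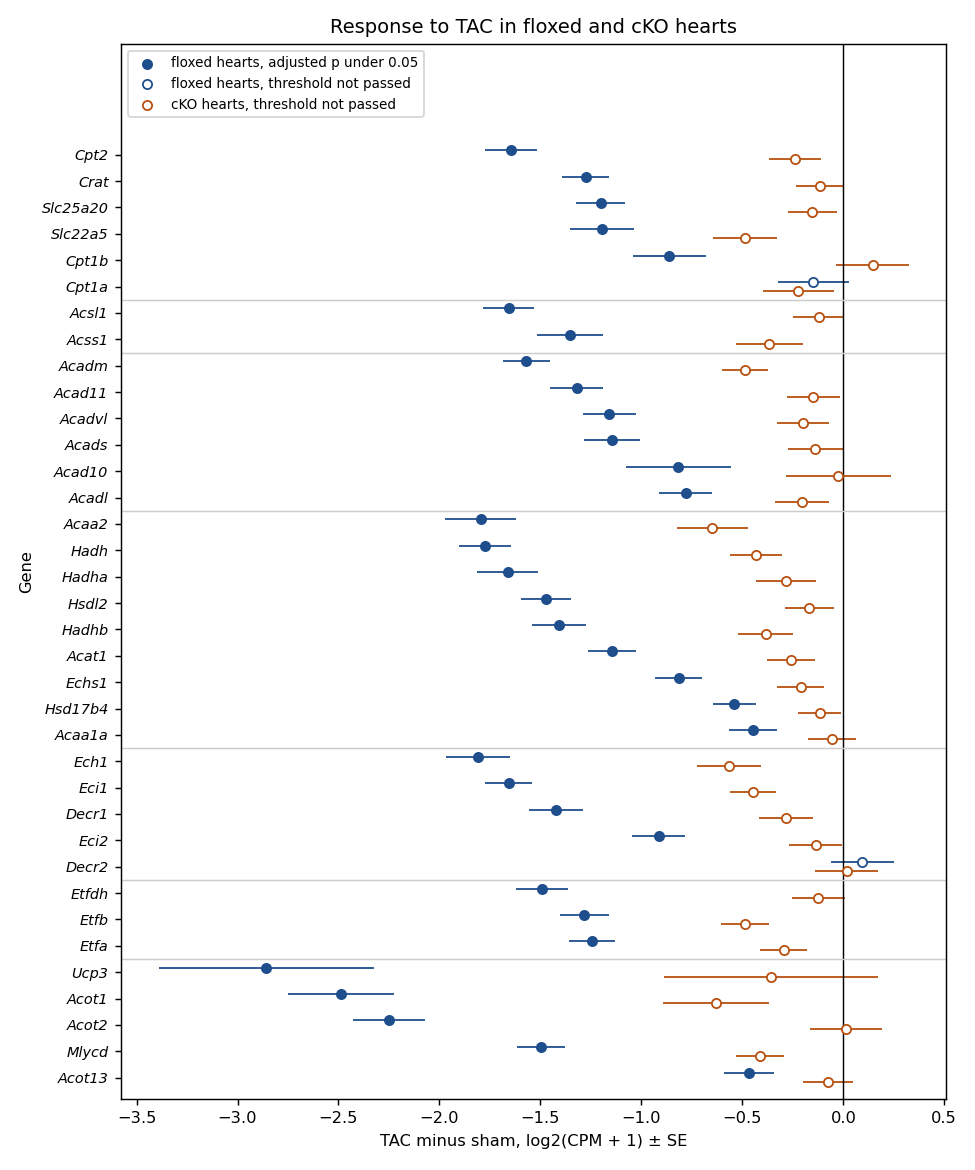
Difference between TAC and sham for each of the 36 genes, as log2(CPM + 1) ± SE of the limma fit, in floxed hearts (blue) and cKO hearts (orange), with filled points where the adjusted p was under 0.05. All points of the cKO hearts are open, and for 34 of the 36 genes the floxed point lies further to the left.

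In sham hearts, 0 of 36 genes differed between the genotypes, where 0.0534% of all genes (7 genes) passed in either direction. By unadjusted p under 0.05, 5 genes were lower in cKO and 0 higher, where 3.68% and 4.04% of all genes were, and DESeq2 and edgeR also gave 0 past the adjusted threshold, as did limma without cKO sham 2 and without the libraries that carry Myl7. The median difference was -0.09, against 0.02 over all genes, and 25 genes had a negative and 11 a positive difference. Both cKO sham libraries lay below both floxed sham libraries for 14 of the 36 (17.1% of all genes) and above them for 4 (24.9%): Cpt1a, Echs1, Decr2 and Mlycd. The largest differences were those of Ucp3 (0.49 ± 0.53), Acot2 (-0.45 ± 0.18) and Cpt1b (-0.43 ± 0.18), and the smallest adjusted p was that of Crat (-0.32 ± 0.12, adjusted p = 0.599). A difference that misses the threshold does not show that the groups are alike.

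The pathway can be set beside others of the same organelle and beside its regulators. In floxed hearts after TAC all 30 genes of oxidative phosphorylation fell, with a median of -0.79, and all 21 of the TCA cycle, with a median of -0.88 beside -1.30 for fatty acid oxidation. In cKO hearts none of these passed, with medians of -0.28 and -0.15. The interaction passed, higher, for 8 of 30 and 13 of 21 (medians 0.47 and 0.63). Sdha, Sdhb, Sdhc and Sdhd are in both lists, so the counts of oxidative phosphorylation and TCA cycle are not separate. Of 16 other peroxisomal genes tested (17 in the table) 10 fell in floxed hearts (median -0.62). Of 9 genes of fatty acid uptake 6 fell and 1 rose (median -0.92), and of 32 other genes of acyl-CoA metabolism 19 fell and 4 rose (median -0.64). In cKO hearts 1 gene of each of these lists was lower, Vldlr (-0.49 ± 0.11, adjusted p = 0.0493) and Mut (-0.66 ± 0.14, adjusted p = 0.0493). Of 5 genes of ketone body use 2 fell and 1 rose in floxed hearts.

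**Figure D4:**
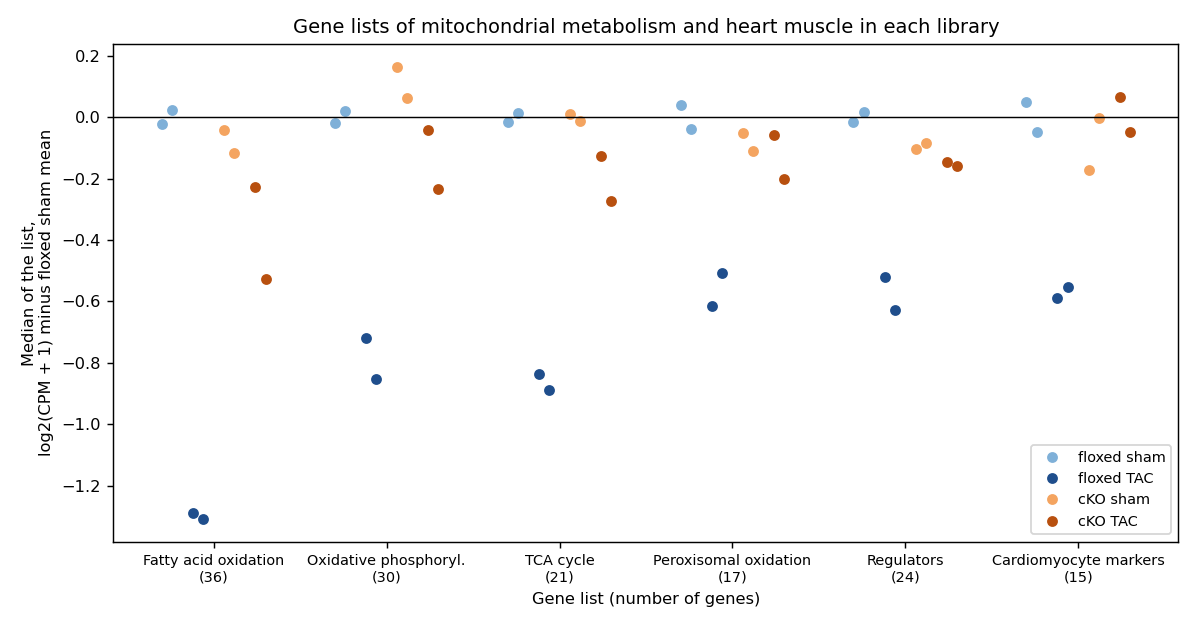
Median over the genes of 6 lists (with their number of genes) of log2(CPM + 1) minus the floxed sham mean, 1 point per library. The floxed TAC points are the lowest in each list and lowest of all for fatty acid oxidation, at -1.29 and -1.31, where the cKO TAC points are at -0.23 and -0.53.

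Of 24 regulators of the pathway 14 fell and 2 rose in floxed hearts after TAC (median -0.54), none passed in cKO hearts (median -0.12), and the interaction passed, higher, for 9. Ppara, which encodes PPAR-alpha, was at 120 and 137 CPM in floxed sham, 61.6 and 58.1 CPM in floxed TAC, 98.9 and 124 CPM in cKO sham and 151 and 92.3 CPM in cKO TAC. It fell by 1.08 ± 0.21 in floxed hearts (adjusted p = 0.00242) and stood at 0.09 ± 0.21 in cKO hearts (adjusted p = 0.879). Ppargc1a, which encodes PGC-1-alpha, was at 86.1 and 97.8 CPM, 48.1 and 41.8 CPM, 106 and 74.8 CPM and 119 and 77.3 CPM in that order, a fall of 1.02 ± 0.21 in floxed hearts (adjusted p = 0.0042). Esrra, an estrogen-related receptor, fell by 0.65 ± 0.11 (adjusted p = 0.00139). Genes listed here as PPAR targets outside oxidation, with Cpt1c and Txnip among them, did not share a direction: of 11 tested 4 fell and 2 rose in floxed hearts. Whether PPAR-alpha acts on them in these hearts was not tested. Pdk4, the kinase that inhibits pyruvate dehydrogenase, was at 216 and 332 CPM in floxed sham, 163 and 295 CPM in floxed TAC, 1493 and 625 CPM in cKO sham and 552 and 650 CPM in cKO TAC. All 4 cKO libraries of Pdk4 lay above all 4 floxed libraries, with a difference of 1.45 ± 0.39 in TAC hearts (adjusted p = 0.0244) and of 1.85 ± 0.39 in sham hearts (adjusted p = 0.388). Of 5 genes of malonyl-CoA metabolism and fatty acid synthesis (Acaca, Acacb, Mcat, Fasn and Acly) 1 fell and 1 rose in floxed hearts. The one that fell, Acacb, the acetyl-CoA carboxylase of the mitochondrial surface, went from 536 and 525 CPM to 201 and 227 CPM in floxed hearts (-1.31 ± 0.14, adjusted p = 0.000102) and was at 404 and 442 CPM in cKO sham and 473 and 361 CPM in cKO TAC.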

How the data were processed

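Left ventricle RNA was made into 8 stranded, poly(A)-selected libraries that were sequenced as paired reads, per the labels' protocols. Per the submitters' processing notes, Bowtie2 2.2.6, HTSeq and DESeq2 were used with mm10, while annotation, counting settings and step order are not stated there. The values the authors deposited are CPM for 13439 genes, scaled by library total alone. In each library 100% of values could be turned back into whole reads (within 0.02 reads), and 0.153% to 0.201% of a library's reads belonged to genes not in the table. The floors in CPM cover counting error only, while each SE of the limma fit comes from the spread between libraries.

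limma 3.58.1 (R 4.3.3) with a trended variance was fitted to log2(CPM + 1), on which scale changes of low genes are understated, in all 8 libraries with 1 coefficient per group. The test covered 13120 genes with 1 CPM or more in 2 or more libraries (319 removed), and Benjamini-Hochberg adjusted p-values under 0.05 passed. The fit was tested on simulated data. Some genes of the lists are not reported here by name. The genes, lists and named genes were chosen with earlier results of these data known. Values in every library are given for entry and control steps, for the 3 genes with the largest difference and the 3 with the smallest adjusted p in each of 5 comparisons, and for genes that did not pass in floxed hearts. The 19 alternatives included other scalings, edgeR 4.0.16, DESeq2 1.42.0, a replicate block and each library left out. Positions are from GENCODE M21 (GRCm38), and promoters from RefSeq. No pair of replicates agreed within sampling noise (chi-square per gene 11.2 to 39.6).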

Additional observations from a re-analysis of the deposited data

Results flagged for a closer look

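For 27 of the 36 genes the response to TAC differed between cKO and floxed hearts by the interaction test (limma, adjusted p under 0.05), each with a positive value, which means that cKO hearts fell less or, for Cpt1b and Acot2, had a small positive difference. For the thioesterases, Mlycd and the genes of fatty acid entry the differences on the log2 scale were 2.26 for Acot2, 1.86 for Acot1, 1.54 for Acsl1, 1.40 for Cpt2, 1.16 for Crat, 1.08 for Mlycd, 1.05 for Slc25a20, 1.01 for Cpt1b and 0.99 for Acss1.

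In the trifunctional protein and the other enzymes from hydration to thiolysis the difference was 1.38 for Hadha, 1.02 for Hadhb, 1.34 for Hadh, 1.30 for Hsdl2, 1.15 for Acaa2, 0.89 for Acat1 and 0.60 for Echs1. Among the acyl-CoA dehydrogenases it was 1.17 for Acad11, 1.08 for Acadm, 1.01 for Acads and 0.96 for Acadvl. It was 1.37 for Etfdh, 0.95 for Etfa and 0.80 for Etfb in electron transfer, and 1.24 for Ech1, 1.21 for Eci1, 1.14 for Decr1 and 0.78 for Eci2 in the use of unsaturated chains. Under every alternative tried, 5 of these 27 stayed past the threshold: Cpt2, Acsl1, Hadha, Etfdh and Acot2.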

How the results depend on the processing

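Against the 34, 0, 0, 32 and 27 genes that passed (TAC in floxed hearts, TAC in cKO hearts, genotype in sham, genotype in TAC, interaction), 26, 13 and 5 of the 34, 32 and 27 stayed past the threshold under every alternative, and no gene passed in sham hearts under any. RLE scaling moved the median of all genes in floxed hearts from 0.14 to 0.00, and that of the 36 to -1.45, with 1.16 for the interaction. TMM scaling gave medians of -1.45, 1.01 and 1.18 for TAC in floxed hearts, genotype in TAC and interaction, edgeR on recovered reads (5559 genes past the threshold over the table in floxed hearts) -1.44, 1.02 and 1.19, and DESeq2 -1.45, 1.03 and 1.19, with 4 genes lower in cKO hearts. Centring on the cardiomyocyte markers gave medians of -0.61 (TAC in floxed hearts), 0.037 (genotype in sham), 0.25 (genotype in TAC) and 0.26 (interaction), and 15 and 9 genes past the threshold in the last 2. Over all genes this centring gave medians of 0.83, 0.15, -0.75 and -0.91 in the same order, with 9030 and 7839 genes past the threshold in the last 2. There, TAC in floxed hearts turned positive for Cpt1a (0.545), Acaa1a (0.245), Hsd17b4 (0.154) and Acot13 (0.225). Genotype in TAC turned negative for Cpt1a (-0.607), Cpt1b (-0.071), Acadl (-0.037), Acad10 (-0.2), Acaa1a (-0.298), Echs1 (-0.015), Hsd17b4 (-0.278), Eci2 (-0.016), Decr2 (-0.624) and Acot13 (-0.098), and the interaction for Slc22a5 (-0.068), Acadl (-0.2), Acaa1a (-0.384), Hsd17b4 (-0.354), Acot13 (-0.384) and Echs1 (-0.173), of which Echs1 had passed. Without the libraries with Myl7, medians were 1.06 for genotype in TAC and 1.199 for the interaction. The cause of these moves was not tested.

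Without the libraries that carry Myl7, the lone samples of 3 groups were assumed to vary like the floxed TAC pair. With 1 library left out, the lone sample of a group was assumed to vary like the other groups. The counts then ranged from 31 to 34 (TAC in floxed hearts), 0 to 7 (TAC in cKO hearts, highest without cKO TAC 1), 26 to 33 (genotype in TAC) and 14 to 29 (interaction, lowest without floxed sham 1). Medians ranged from -0.363 to -0.084 (TAC in cKO hearts), 0.76 to 1.06 (genotype in TAC) and 0.91 to 1.18 (interaction), each extreme without a cKO TAC library. Same-numbered libraries did not deviate together (6 correlations, -0.105 to 0.081). With the replicate block 34, 0, 0, 31 and 27 genes passed. With 2 libraries a group, the spread rests on few samples.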

Other observations

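Of the genes of ketone body use, Oxct1 and Bdh1 moved in opposite directions after TAC in floxed hearts. Oxct1, the enzyme that activates ketone bodies for oxidation, fell by 0.73 ± 0.13 (SE) on the log2 scale in floxed hearts (limma, adjusted p = 0.00182). Bdh1, the hydroxybutyrate dehydrogenase, rose by 1.11 ± 0.36 in floxed hearts (adjusted p = 0.0312), from 147 and 51.9 CPM to 210 and 173 CPM, and in cKO hearts it was at 81.6 and 76.6 CPM in sham and 219 and 232 CPM after TAC without passing the test (adjusted p = 0.0649).

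Both Pnpla2 and Plin5, from the list of PPAR targets outside oxidation, were lower in floxed TAC. Pnpla2, the triglyceride lipase, fell by 1.13 ± 0.14 (adjusted p = 0.000206) and Plin5, a droplet coat protein of oxidative tissues, by 1.45 ± 0.20 (adjusted p = 0.000347), and their interactions were 0.93 ± 0.19 (adjusted p = 0.0171) and 1.27 ± 0.28 (adjusted p = 0.0186). The thioesterase gene Acot9 rose, unlike Acot1 and Acot2: it was at 21.5 and 22.1 CPM in floxed sham, 57.3 and 55.6 CPM in floxed TAC, 28.5 and 28.8 CPM in cKO sham, and 31.6 and 36.2 CPM in cKO TAC. Its floxed response was 1.33 ± 0.13 (adjusted p = 6e-05) and its interaction was -1.10 ± 0.18 (adjusted p = 0.0079). These genes were not recomputed under the alternative settings.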
